A study of Mus musculus with 2 samples.

Results

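The cells described here are the MHC class II-bearing B and myeloid cells that were found among CD4 T cells sorted from the visceral fat (visceral adipose tissue, VAT) of mice. They were chosen by their own transcripts. A member had at least 5 unique molecular identifiers (UMIs, counted transcripts) of H2-Aa, H2-Ab1 and H2-Eb1 together, and it did not carry both Siglech and 3 or more of 6 plasmacytoid dendritic cell genes (Siglech, Tyrobp, Cox6a2, Tcf4, Klk1 and Irf8). This rule gave 66 members among 13191 cells, of which 38 came from the wild-type (WT) library and 28 from the library of mice lacking CD27 (CD27_KO). Members were then split by Cd79a, the signalling chain of the B cell receptor, into 35 with at least 1 Cd79a UMI (18 WT, 17 CD27_KO) and 31 with none (20 WT, 11 CD27_KO). The levels of all these genes chose and split the cells, so where they are given they are a description.

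The study compared CD4 T cells of WT and CD27-/- mice by droplet single-cell RNA sequencing. Tissue of 10 mice was pooled, its stromal vascular fraction (all cells but the adipocytes) was taken, and TCRb+ CD4+ cells were sorted by flow cytometry. It is not clear from the labels whether each pool held 10 mice or both together did. Both libraries carry the genotype entry C57BL/6, neither has an age or treatment entry, and the groups WT and CD27_KO come from the sample titles. The mice with a Cd70 transgene driven by CD11c that the design text also names are not among these samples. The sort did not select for B or myeloid cells, so the members are what passed that gate and their shares say nothing of how common such cells are in the tissue. Each group is 1 library of pooled mice, so nothing here measures how far mice or libraries of 1 group vary. All intervals are exact, at 95%, and cover counting error only.

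MHC class II molecules present peptides from endocytosed proteins to CD4 T cells. They are made by professional antigen-presenting cells, mainly B cells, macrophages and dendritic cells. H2-Aa and H2-Ab1 encode the alpha and beta chains of I-A, and H2-Eb1 the beta chain of I-E. Transcription of these genes depends on the coactivator CIITA, which is recruited to a promoter module that includes the X and Y boxes. In adipose tissue, macrophages are the most studied antigen-presenting cells. CD27 belongs to the TNF receptors and sits on T cells and some B cells, and its ligand CD70 is made by activated antigen-presenting cells.

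The 3 genes that chose the cells lie together on chromosome 17 (mm10, GENCODE vM21). H2-Ab1 spans 34257689 to 34269419 on the plus strand, H2-Aa 34282744 to 34287823 on the minus strand, and H2-Eb1 34305867 to 34316674 on the plus strand. Cd79a lies on chromosome 7 from 24897381 to 24902197, plus strand. RefSeq promoter windows (GRCm38.p6, 250 bases before the start to 50 after it) were given for H2-Aa, H2-Eb1 and Cd79a, and were not used for H2-Ab1 and Cd74. The 250 bases before the start are shown for both class II genes, 5′ to 3′ on the gene's strand, because these genes define the cells and share the Y box letters. Capitals mark ATTGG (or CCAAT, the same letters on the other strand), the core of the Y box, and the core of the X box. The windows are chr17:34287824-34288073 (minus strand) for H2-Aa and chr17:34305617-34305866 (plus strand) for H2-Eb1.
H2-Aa: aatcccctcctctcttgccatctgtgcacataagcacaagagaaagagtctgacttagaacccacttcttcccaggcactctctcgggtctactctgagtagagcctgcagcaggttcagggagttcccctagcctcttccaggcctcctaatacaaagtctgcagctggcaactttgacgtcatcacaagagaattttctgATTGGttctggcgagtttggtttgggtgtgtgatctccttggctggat
H2-Eb1: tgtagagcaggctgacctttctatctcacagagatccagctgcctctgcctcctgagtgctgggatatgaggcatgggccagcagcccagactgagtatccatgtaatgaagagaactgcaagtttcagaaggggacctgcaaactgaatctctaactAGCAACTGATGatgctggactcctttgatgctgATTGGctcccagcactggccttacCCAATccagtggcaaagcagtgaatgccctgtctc

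ATTGG began 48 bases before the start in H2-Aa and 59 bases before it in H2-Eb1. H2-Eb1 also held the letters on the other strand at 35 bases before the start, and the X box core at 92 bases before it. No match to the X box core was found in the H2-Aa window, and neither set of letters was found in that of Cd79a. Both strands were searched and the 2 motifs share no bases in these windows. Of all 32851 promoter windows of the same length, 37.4% held ATTGG, 0.968% held the X box core, and 0.387% held both. A match is a run of letters and was not set against any binding data.

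Members made up 0.600% of the kept WT cells (interval 0.425 to 0.822) and 0.409% of the kept CD27_KO cells (0.272 to 0.590). The ratio of these shares, CD27_KO over WT, was 0.681 with an interval of 0.403 to 1.14. Members with Cd79a were 0.284% of WT and 0.248% of CD27_KO cells, a ratio of 0.873 (0.423 to 1.80). Members without Cd79a were 0.316% and 0.161%, a ratio of 0.509 (0.220 to 1.11). All 3 of these intervals include equal shares. Members with Cd79a were 47.4% of all WT members (30.98 to 64.2) and 60.7% of all CD27_KO members (40.6 to 78.5). Among members without CD3 UMIs this order turned, with 6 of 13 in WT (46.2%) and 4 of 12 in CD27_KO (33.3%), which left 7 WT and 8 CD27_KO cells without Cd79a. The rule's threshold cut through few cells. Just outside it, 1 WT and 2 CD27_KO cells had 4 class II UMIs, and just inside, 2 WT and 1 CD27_KO cells had 5.

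Cells carrying at least 1 UMI of Cd3e, Cd3d or Cd3g, which encode the CD3 chains of the T cell receptor complex, were counted as a check for droplets that hold a T cell together with another cell. CD3 transcripts were found in 25 of 38 WT members (65.8%, interval 48.6 to 80.4) and in 16 of 28 CD27_KO members (57.1%, 37.2 to 75.5). At 1000 UMIs per cell these were 20 of 38 (52.6%) and 11 of 28 (39.3%), beside 89.3% and 89.4% of nonmembers. The CD3-bearing members were the deeper ones. Among WT members with Cd79a, the median was 1596.5 UMIs in the 6 cells without CD3 and 7483 in the 12 cells with it. In CD27_KO the medians were 3111 (4 cells) and 6198 (13 cells). Among WT members without Cd79a the medians were 2180 (7 cells) and 9055 (13 cells), and in CD27_KO they were 3585.5 (8 cells) and 5297 (3 cells). CD3-bearing nonmembers had medians of 1950 UMIs in WT and 2214 in CD27_KO. The median depth of CD3-bearing members was thus above that of members without CD3 and above that of T cells in each class and library.

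**Figure D1:**
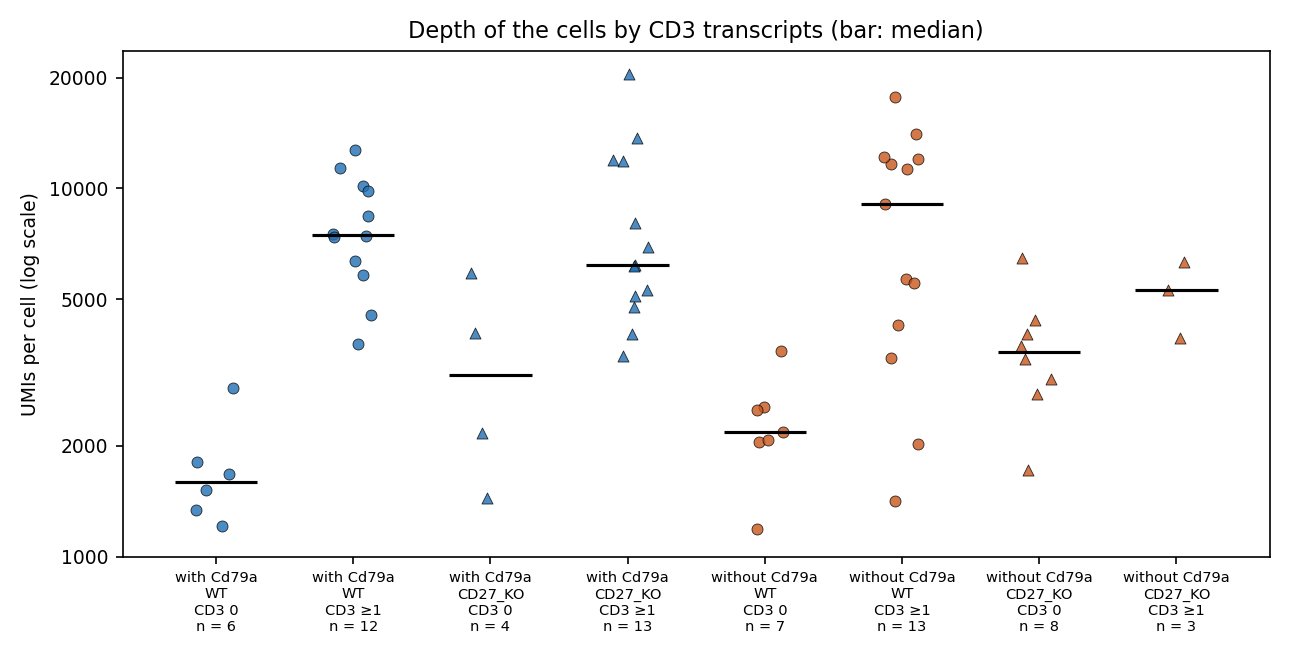
UMIs per cell (log scale) for each of the 66 members, by Cd79a class, library and presence of CD3 UMIs, with 1 point per cell and the median as a bar. In each class and library the cells with CD3 UMIs have the higher median, from 7483 against 1596.5 in WT members with Cd79a to 5297 against 3585.5 in CD27_KO members without it.

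CD3 UMIs made up a somewhat lower part of the RNA in CD3-bearing members than in T cells. Per 10000 UMIs, CD3-bearing members with Cd79a held 19.1 CD3 UMIs in WT and 17.1 in CD27_KO, and CD3-bearing nonmembers held 24.6 and 23.9. Without Cd79a, 13 of 20 WT and 3 of 11 CD27_KO members carried CD3. With Cd79a, 12 of 18 and 13 of 17 did. The plasmacytoid cells that the rule leaves out had CD3 in 37 of 49 WT and 8 of 17 CD27_KO cells. No doublet caller was run. Cd4, the gene of the other sort marker, had UMIs in 6 of 18 WT and 7 of 17 CD27_KO members with Cd79a, and in 8 of 20 and 4 of 11 without. Each result below is therefore given with its value in members without CD3 UMIs where that value changes it.

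**Figure D2:**
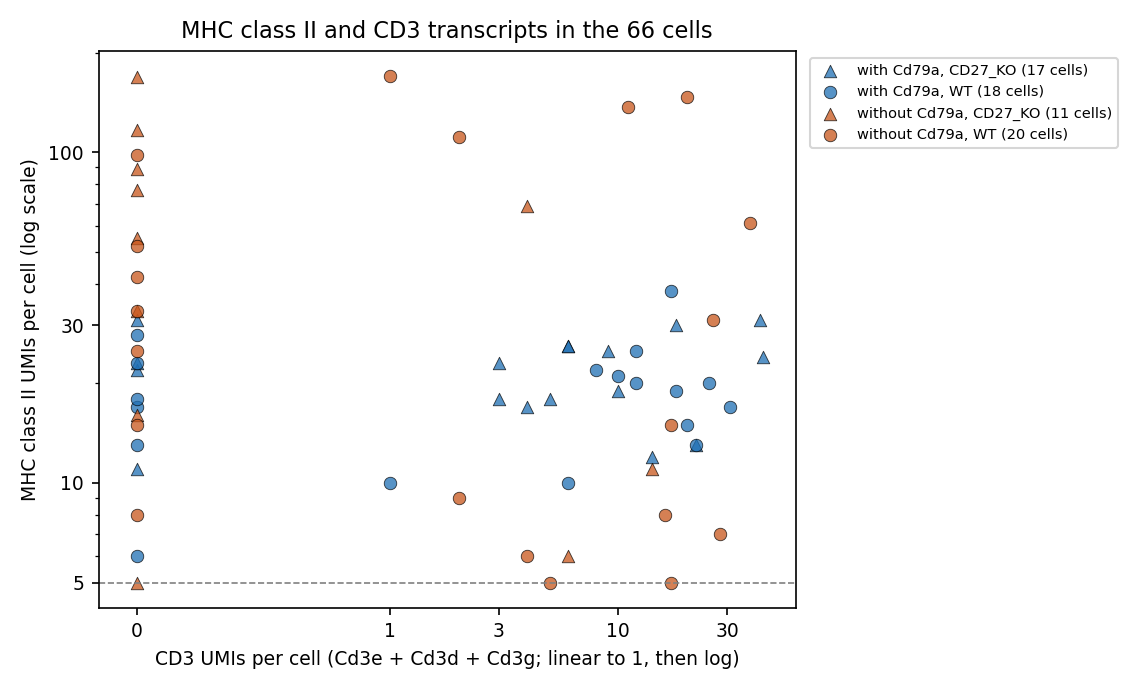
MHC class II UMIs (H2-Aa, H2-Ab1 and H2-Eb1 summed, log scale) against CD3 UMIs (Cd3e, Cd3d and Cd3g summed, linear to 1 and then log) in each of the 66 members, with colour for the Cd79a class and shape for the library. The dashed line is the threshold of 5 UMIs. All 6 cells with 100 or more class II UMIs are cells without Cd79a, and cells with and without CD3 UMIs occur in both classes.

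Class II transcripts, which the rule used, differed in spread between the classes. In members with Cd79a the summed class II count ran from 6 to 38 UMIs per cell with a median of 18.5 in WT, and from 11 to 31 with a median of 23 in CD27_KO. In members without Cd79a it ran from 5 to 170 with a median of 28 in WT, and from 5 to 169 with a median of 55 in CD27_KO. The 6 cells with 100 or more UMIs (4 WT, 2 CD27_KO) were all without Cd79a. The genes of the trio were nearly always found together. H2-Aa was in 17 of 18 WT and 17 of 17 CD27_KO cells with Cd79a and in 20 of 20 and 11 of 11 without. H2-Ab1 was in all 66 members. H2-Eb1 was in 17 of 18 WT and 17 of 17 CD27_KO cells with Cd79a and in 19 of 20 and 10 of 11 without. As the background in T cells, 0.427% of WT and 0.448% of CD27_KO nonmembers with CD3 had an H2-Aa UMI.

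Cd74, the invariant chain that escorts class II molecules and blocks their groove, was not used by the rule and followed it. It was found in 65 of 66 members. Cd74 ran from 13 to 44 UMIs (median 20.5) in WT and from 11 to 56 (median 23) in CD27_KO members with Cd79a. Without Cd79a it ran from 0 to 135 (median 18.5) in WT and from 7 to 130 (median 48) in CD27_KO. CD3-bearing nonmembers had a Cd74 UMI in 3.04% of WT and 2.35% of CD27_KO cells. The ranges of the classes overlap, and the highest cells were again those without Cd79a.

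The rest of the class II presentation pathway was seen at low counts. H2-DMa, a chain of the peptide exchange factor H2-M, had 16 UMIs in 10 WT and 22 in 12 CD27_KO cells with Cd79a, and 19 in 9 and 24 in 9 cells without. H2-DMb1, a beta chain of H2-M, had 3 UMIs in 3 WT cells and 0 in CD27_KO with Cd79a, and 19 in 10 WT and 15 in 5 CD27_KO cells without. H2-DMb2, the other beta chain, had 9 UMIs in 6 WT and 17 in 8 CD27_KO cells with Cd79a and 5 in 3 and 6 in 3 without. So UMIs of H2-DMb1 fell mostly in cells without Cd79a, and those of H2-DMb2 mostly in cells with it. H2-Ob, a chain of the H2-M inhibitor H2-O, had 15 UMIs in 11 WT and 8 in 7 CD27_KO cells with Cd79a and 4 in 2 and 3 in 2 without. H2-Oa, its partner, had 7 and 4 UMIs with Cd79a and 4 and 2 without. H2-Eb2 had 3 UMIs in WT with Cd79a and 1 in CD27_KO without. The regulators were close to the limit of detection: Ciita had 2 WT and 3 CD27_KO UMIs with Cd79a and 4 and 1 without, Rfx5 had 2 and 3 against 1 and 0, Rfxap 4 and 1 against 4 and 1, and Rfxank 0 and 0 against 1 and 1. Cd63, an endosomal tetraspanin, had 0 UMIs with Cd79a and 6 in 5 WT and 9 in 2 CD27_KO cells without.

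The lysosomal enzymes of the pathway differed more. Ctss, cathepsin S, which cuts the invariant chain, had 13 UMIs in 9 WT and 15 in 10 CD27_KO cells with Cd79a and 32 in 13 and 37 in 8 cells without. Per 1000000 UMIs this was 1.71 higher on the log2 scale without Cd79a (interval 1.05 to 2.40), with 1.04 in WT and 2.73 in CD27_KO alone. Lgmn, the asparaginyl endopeptidase legumain, had 1 UMI with Cd79a and 49 without, a log2 difference of 6.02 (3.48 to 11.35). Ifi30, a lysosomal thiol reductase, had 16 and 32 UMIs with Cd79a and 32 and 15 without, a log2 difference of 0.38 (-0.24 to 0.99). Cd74 itself was 1.13 higher without Cd79a over both libraries (1.003 to 1.25). Among cells without CD3 over both libraries it was higher without Cd79a by less than 2-fold. The libraries differed, with Cd74 at 0.65 in WT alone (0.48 to 0.83), under the 2-fold bound, and at 1.93 in CD27_KO alone (1.75 to 2.12).

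The members with Cd79a were checked against 16 B cell markers, of which Cd79a is not one. Each of the 35 cells held at least 7 of them, with a range of 7 to 11 and a median of 9 in WT and of 7 to 12 and a median of 10 in CD27_KO. CD3-bearing nonmembers had a median of 1. Ms4a1, which encodes CD20, was in 16 of 18 WT cells (49 UMIs) and 15 of 17 CD27_KO cells (69 UMIs). Ebf1, a transcription factor that specifies B cells, was in 16 of 18 (80 UMIs) and 17 of 17 (83 UMIs). Pax5, which keeps B cell identity, had 11 UMIs in 8 WT and 11 in 7 CD27_KO cells. None of these 3 genes was seen in more than 1 cell without Cd79a. Cd79a itself ran from 2 to 10 UMIs per cell (median 5) in WT and from 2 to 14 (median 7) in CD27_KO. Cd79a was found in 0.0821% of WT and 0.0598% of CD27_KO CD3-bearing nonmembers.

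Of 8 plasma cell markers, 5 were detected in WT cells (39 UMIs) and 4 in CD27_KO cells (59 UMIs), and 2 WT and 5 CD27_KO cells held 3 or more. Jchain, the joining chain of secreted antibodies, Derl3 and Tnfrsf17 were at 0 UMIs in both libraries. Mzb1 held most of these counts, and Xbp1, Prdm1 and Irf4, transcription factors of secreting cells that also act elsewhere, and in WT Sdc1 gave the rest. Mzb1, a chaperone of the endoplasmic reticulum that is also found in other B cells, had 26 UMIs in 13 WT and 35 in 13 CD27_KO cells. Among constant regions of the heavy chain, Ighm (IgM) had 111 UMIs in 17 of 18 WT cells and 185 in 17 of 17 CD27_KO cells. Ighd (IgD) had 9 UMIs in 8 WT cells and 4 in 2 CD27_KO cells. Switched isotypes were rare. Ighg3 had 3 UMIs in 1 WT cell, Ighg2b had 2 in 1 CD27_KO cell, Igha had 1 in 1 CD27_KO cell, and Ighg1, Ighg2c and Ighe were at 0. Ighm was also found in 19.2% of WT and 16.7% of CD27_KO CD3-bearing nonmembers, so a low Ighm count does not mark a B cell here. Its counts per cell ran from 0 to 15 (median 5.5) in WT and from 1 to 21 (median 12) in CD27_KO. The 2 ranges overlap over most of their length.

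Genes of follicular, marginal zone and homing programmes were thinly counted. Fcer2a (CD23) had 3 WT and 2 CD27_KO UMIs, Cr2 (CD21) had 4 and 0, and Cxcr5, the receptor for CXCL13, had 4 and 7. Tnfrsf13b (TACI) had 9 and 8 UMIs, and Tnfrsf13c, the receptor for the survival factor BAFF, had 1 and 2. Mki67, a proliferation gene, was at 0 UMIs in all 35 cells. Counts this low do not set the cells into a B cell subset.

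Light chain counts varied widely among the members with Cd79a. A mature B cell normally keeps either a kappa or a lambda chain. Igkc, the kappa constant gene, was found in 28 of 35 cells (16 WT, 12 CD27_KO), with 272 WT and 250 CD27_KO UMIs. UMIs of the lambda constant genes Iglc1, Iglc2 and Iglc3 were summed per cell. Lambda UMIs were found in all 35 cells, from 1 to 36 per cell in WT (median 8.5) and from 1 to 35 in CD27_KO (median 12). Among CD3-bearing nonmembers, Iglc2 was found in 0 of 6091 WT cells and in 0.0448% of CD27_KO cells, and Igkc was found in 1.001% and 0.613%. Lambda exceeded Igkc in 14 cells (6 WT, 8 CD27_KO), and Igkc was at 0 in 7 (2 WT, 5 CD27_KO). All 14 of these carried CD3 transcripts. Of the 10 members with Cd79a and no CD3, 10 had more Igkc than lambda, with 126 Igkc UMIs in 6 WT and 115 in 4 CD27_KO cells. The cells with Igkc at 0 had between 4036 and 20523 UMIs. The split by CD3 rests on 10 cells on its smaller side and was noticed in these data, and it was not tested.

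**Figure D3:**
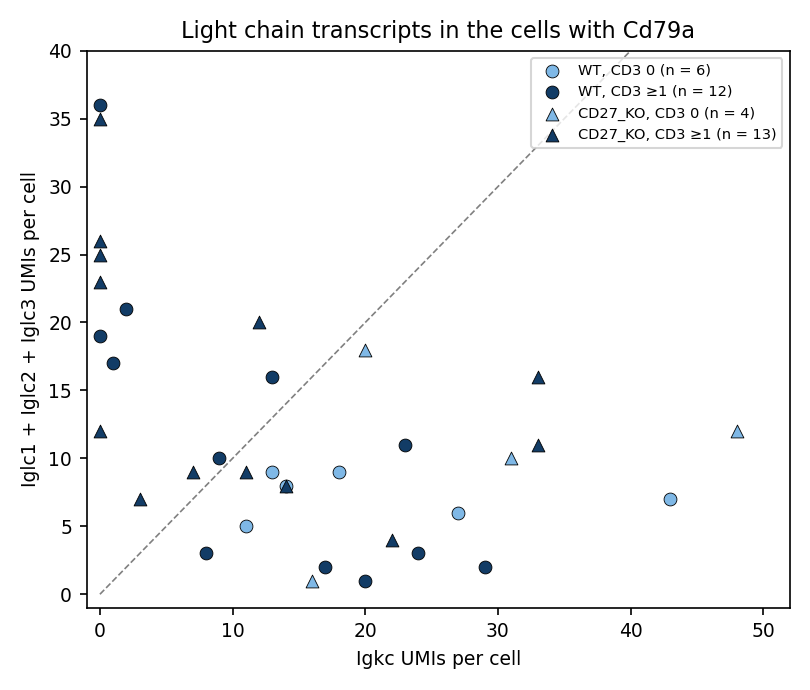
Igkc UMIs against lambda UMIs (Iglc1, Iglc2 and Iglc3 summed) in each of the 35 members with Cd79a, with shape for the library, pale points for cells without CD3 UMIs and dark points for cells with them. The dashed line marks equal counts. The 14 cells above the line all carry CD3, 7 of them lie at 0 Igkc, and the 10 pale points lie below the line.

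The members without Cd79a were a mixture. By their markers, 14 of 31 cells (8 WT, 6 CD27_KO) carried transcripts of all 3 chains of complement C1q, C1qa, C1qb and C1qc, which in tissues are made mainly by macrophages. The division at C1q was made after the values were seen. These 14 cells held 5 to 12 (median 10) of 15 macrophage markers in WT and 7 to 12 (median 9.5) in CD27_KO, and each of the other 17 cells held 3 or fewer. C1qa was found in 0.0164% of WT and 0.0897% of CD27_KO CD3-bearing nonmembers. Apoe, a lipid carrier, had 2 to 49 UMIs per cell (median 25) in the WT cells and 8 to 90 (median 31.5) in the CD27_KO cells, and it was at 0 in the other 17. Lyz2, lysozyme, was in 7 of 8 WT and 6 of 6 CD27_KO cells with C1q, with 72 and 120 UMIs. Mrc1, the mannose receptor, had 26 and 22 UMIs, Folr2, a folate receptor, 14 and 15, and Csf1r, the receptor that macrophages need to survive, 15 and 22. Pf4, a chemokine of platelets that is also made by tissue macrophages, had 73 and 57. Trem2, a lipid receptor, had 4 UMIs in 2 WT and 5 in 2 CD27_KO cells, and Timd4 was at 0.

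Retnla, a secreted resistin-like protein induced by type 2 cytokines, was spread unevenly over the cells. It had 250 UMIs in 7 WT cells and 181 in 5 CD27_KO cells without Cd79a, and 0 in the 35 cells with it. Of these 12 cells, 9 (4 WT, 5 CD27_KO) carried C1q. Within the C1q cells Retnla ran from 0 to 101 UMIs per cell (median 13) in WT and from 0 to 70 (median 24.5) in CD27_KO. The other 3 were WT cells with 36 Retnla UMIs among them and 16 to 17 CD3 UMIs each. Among CD3-bearing nonmembers, 0.542% of WT and 0.374% of CD27_KO cells had a Retnla UMI.

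The 17 members with neither Cd79a nor C1q (12 WT, 5 CD27_KO) matched no single type. CD3 was found in 10 of the 12 WT cells and in 0 of the 5 CD27_KO cells. The WT cells with CD3 had 3457 to 17666 UMIs (median 11507.5), and the CD27_KO cells had 2759 to 6463 (median 3437). Of 9 markers of type 2 conventional dendritic cells, which present antigen to CD4 T cells, 6 cells held 3 or more (4 WT, all with CD3, and 2 CD27_KO). Cd209a, a lectin of these cells, was found in 6 of the 17 (4 WT, 2 CD27_KO). A single CD27_KO cell carried Xcr1, the chemokine receptor that marks type 1 conventional dendritic cells. It held 6 of 8 markers of that type, 169 class II UMIs, 6463 UMIs in all and no CD3. Another CD27_KO cell held 7 of 9 plasmacytoid markers with Siglech at 0, which is why the rule kept it. This cell is also 1 of the 2 CD27_KO cells counted above for type 2 markers, with 4 of 9, and 1 of the 2 with Cd209a. The other CD27_KO cell with Cd209a held 4 plasmacytoid markers. 1 WT cell held 7 B cell markers, 31 lambda and 13 Ighm UMIs and 26 CD3 UMIs, with Cd79a at 0. Siglech was found in 3 members. The label "myeloid" thus described the 14 C1q cells and the dendritic cells among the rest, and not every cell without Cd79a. Markers of neutrophils and of mast cells were at 0 in all 66 members.

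**Figure D4:**
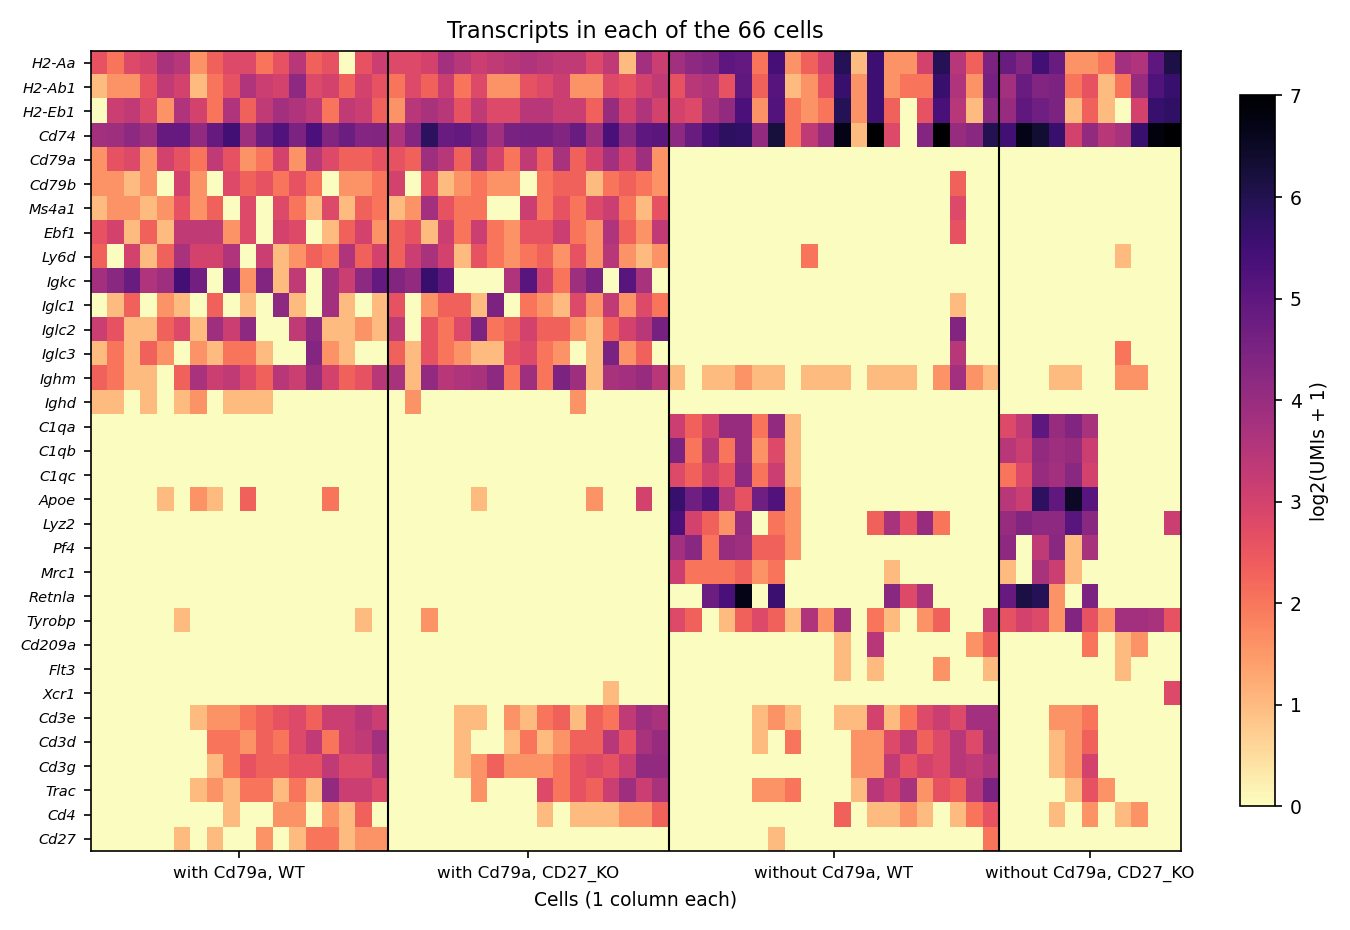
Log2(UMIs + 1) of selected B cell, myeloid and T cell genes in each of the 66 members, with 1 column per cell, grouped by Cd79a class and library. The 35 cells with Cd79a share B cell genes, 14 cells without it carry C1qa, C1qb and C1qc, and CD3 and Trac counts cross the classes.

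Set against members with Cd79a over both libraries, members without it had 70 of 1088 measured genes at least 2-fold higher (6.43%) and 37 at least 2-fold lower (3.40%), by UMIs per 1000000 UMIs of the summed cells, or 107 in either direction (9.83%). A gene was measured if it had at least 50 UMIs in at least 5 cells. The split used Cd79a, so these are descriptions of the classes. The median of all measured genes was -0.05 on the log2 scale. Retnla had 431 UMIs without Cd79a and 0 with it, 190-fold higher with the 0 set to 3 counts over the class (lower log2 bound 7.27). With the same floor Lyz2, with 239 against 0, was 106-fold higher (lower log2 bound 6.41), and C1qa, with 162 against 0, 71.6-fold (5.85). Mt1, a metallothionein that binds zinc, had 180 against 2 UMIs, of which 151 of the 180 were in WT. The count of higher genes includes Tyrobp, 1 of the 6 plasmacytoid genes of the rule. In the other direction Igkc had 0 against 522 UMIs, 131-fold lower with the same floor (upper log2 bound -6.73). Ly6d, a surface protein of B lineage cells, was 31.3-fold lower (4 against 166), Ebf1 24.6-fold lower (5 against 163) and Ms4a1 14.8-fold lower (6 against 118).

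By lists, 8 of 16 B cell markers were measured and all 8 were lower without Cd79a, with a median log2 difference of -3.74. Of 15 macrophage markers 5 were measured and all 5 were higher, with a median of 5.87. The 3 measured complement genes, C1qa, C1qb and C1qc, were higher and are also among these 5. Of the lysosomal genes 10 of 11 measured were higher, with a median of 2.46, among them Lyz2, also a macrophage marker. Ebf1, Ms4a1, C1qa and Lyz2, for example, reached the 50 UMIs of a measured gene only through the side where they are high. Such counts were therefore largely fixed by that filter and only describe the classes. Ctsb, cathepsin B, was 3.47 higher (2.72 to 4.32), with 2.64 in WT and 4.62 in CD27_KO alone. Psap, the precursor of the saposins, was 2.50 higher (1.97 to 3.07), with 1.67 in WT and 3.65 in CD27_KO. Genes known to respond to tissue dissociation were higher in 8 of 13, with a median of 1.43, among them Fos at 2.05 (1.71 to 2.40), with 1.62 in WT and 2.76 in CD27_KO alone. In WT alone 8 of 13 were higher, with a median of 1.30, and in CD27_KO alone 3 of 7 were higher and 1, Btg2, lower, with a median of 0.60. Egr1 was at 3.50 over both libraries (2.50 to 4.69), but 70 of its UMIs without Cd79a were WT and 7 CD27_KO, and in CD27_KO alone it had too few counts to be measured. Of the T cell list 0 of 10 measured genes were called over both libraries, with Trac at 0.00 (-0.41 to 0.42). The libraries differed here as well, with 0 of 9 called in WT alone, and 6 of 6 lower in CD27_KO alone (Cd28, Trbc2, Cd3g, Cd3d, Cd3e and Trac), with a median of -1.58. Within the WT library alone 35 of 594 measured genes were higher (5.89%) and 14 lower (2.36%), 8.25% in either direction. Within CD27_KO alone 30 of 381 were higher (7.87%) and 54 lower (14.2%), 22.0% in either direction. In members without CD3 UMIs, 34 of 170 measured genes were higher and 22 lower.

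CD27 and its ligand were checked in the members. Cd27 had 16 UMIs in 9 WT members with Cd79a and 4 in 2 without, and 0 in all 28 CD27_KO members. In nonmembers with CD3, Cd27 had 2050 UMIs in WT and 15 in CD27_KO. Only 1 of the 16 UMIs lay in a WT member with Cd79a and no CD3, and the other 15 lay in cells that also carried CD3. The 2 cells with Cd27 but no Cd79a carried CD3 as well. Cd70 had 1 UMI, in 1 WT member without Cd79a that held 38 CD3 UMIs, and 0 in the other 65 cells. At 3 counts or fewer this is at the limit of detection, and no difference in Cd70 was detectable at this depth.

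Other ligands by which antigen-presenting cells act on T cells were also scarce. Cd86 had 3 WT and 2 CD27_KO UMIs with Cd79a and 1 and 3 without. Cd80 had 2 and 1 with Cd79a and 2 and 1 without. Cd40, the receptor for CD40 ligand, had 2 and 0 against 1 and 1. Icosl had 2 and 1 against 1 and 1, and Tnfsf4, OX40 ligand, was at 0 throughout. Tnfsf9, 4-1BB ligand, had 1 and 0 against 4 and 0, Tnfsf14 2 and 1 against 4 and 0, and Tnfsf13b, the gene of BAFF, 0 and 1 against 1 and 0. Cd274, PD-L1, had 8 and 5 with Cd79a and 2 and 0 without, and Pdcd1lg2, PD-L2, had 2 and 1 against 5 and 1. Higher counts were seen for 2 genes only. Cd83, which keeps class II and CD86 at the surface, had 10 UMIs in 7 WT and 4 in 4 CD27_KO cells with Cd79a, and 54 in 10 and 18 in 5 cells without. This made Cd83 2.77 higher without Cd79a on the log2 scale (1.93 to 3.71), with 2.17 in WT and 3.60 in CD27_KO alone. Cd48, a ligand of CD2 and CD244, had 34 UMIs in 15 WT and 29 in 11 CD27_KO cells with Cd79a and 38 in 12 and 14 in 7 without.

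Between libraries, the members with Cd79a differed little in the genes of their own class. In CD27_KO, 10 of 554 measured genes lay 2-fold or more above WT (1.81%) and 12 lay as far below (2.17%), 3.97% in either direction. In CD3-bearing nonmembers the corresponding shares were 2.30%, 2.05% and 4.34% of 10847 genes. Of the B cell markers 8 were measured, and 1 of them was called, with a median log2 difference of -0.06 against 0.00 over all measured genes. That gene was Bank1, a scaffold of B cell receptor signalling, with 46 CD27_KO UMIs in 13 cells against 18 WT UMIs in 11 cells, 1.15 higher (0.34 to 2.03). In cells without CD3 Bank1 had 12 UMIs in 4 CD27_KO against 3 in 6 WT cells. Over all members with Cd79a, Ighm was 0.54 higher (0.19 to 0.89), Igkc -0.32 (-0.58 to -0.07) and Ms4a1 0.29 (-0.26 to 0.85). Ebf1 was at -0.15 (-0.61 to 0.31) and Cd74 at -0.18 (-0.38 to 0.01). All of these lay below the 2-fold bound. In the cells without CD3, Ighm was past that bound, with 1 to 16 UMIs per cell in the 4 CD27_KO and 0 to 4 in the 6 WT cells. Igkc, Ms4a1, Ebf1 and Cd74 stayed below it there. The class II genes, which the rule used, were at 0.32 for H2-Aa, -0.55 for H2-Ab1 and -0.06 for H2-Eb1.

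Genes past the bound in members with Cd79a included several that T cells express too. Hspa5, the chaperone BiP, was 1.54 higher in CD27_KO (40 against 12 UMIs). Vim, vimentin, was 1.08 higher (146 against 60), Ifngr1, a chain of the interferon gamma receptor, 1.13 (73 against 29) and Id2, an inhibitor of E proteins, 1.006 (97 against 42). In T cells, meaning CD3-bearing nonmembers, the same differences were 0.22 for Hspa5, 0.03 for Vim, 0.27 for Ifngr1 and 0.62 for Id2. Vim was at -0.25 in the members with Cd79a that had no CD3. Lower in CD27_KO were Trbc1, a constant gene of the T cell receptor beta chain, at -2.40 (15 against 69), and Ikzf2, the transcription factor Helios, at -1.89 (13 against 42). In T cells Trbc1 was at -0.16 and Ikzf2 at -1.26. Members with Cd79a and T cells come from the same 2 libraries, so these are values side by side and not separate evidence. The T cell list took 49.7 of 10000 UMIs in WT and 45.5 in CD27_KO members with Cd79a, and its part in these differences was not tested.

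In members without Cd79a the libraries lay further apart. In CD27_KO, 26 of 422 measured genes lay 2-fold or more above WT (6.16%) and 42 lay as far below (9.95%), 16.1% in either direction. The genes furthest up were lysosomal and macrophage genes. Grn, progranulin, was 2.25 higher (1.47 to 3.06; 39 against 23 UMIs), Ctsb 2.14 (82 against 52), Psap 2.10 (93 against 61), C1qa 1.92 (93 against 69) and Apoe 1.75 (226 against 189). Cst3, the protease inhibitor cystatin C, was 1.86 higher (259 against 200). The count of higher genes again includes Tyrobp of the rule. The genes furthest down were largely T cell genes. Trbc2 had 3 CD27_KO against 87 WT UMIs, a log2 difference of -3.37, and Trbc1 had 2 against 52. Il7r, the receptor for interleukin 7, was at -2.27 (4 against 54), Ms4a4b, a T cell membrane protein, at -2.15 (12 against 149), and Ptpn22, a phosphatase of T cell receptor signalling, at -2.60 (3 against 51).

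By lists, 6 of 7 measured lysosomal genes, 5 of 5 macrophage markers and 3 of 3 complement genes were higher in CD27_KO. These lists overlap. The 3 complement genes, C1qa, C1qb and C1qc, are also among the 5 macrophage markers, and Lyz2 is in both the macrophage and lysosomal lists. Of the T cell genes 7 of 7 measured were lower, with a median of -1.78 against -0.11 over all measured genes. Trbc1 and Trbc2 reached the 50 UMIs of a measured gene through WT alone. The T cell list took 44.5 of 10000 UMIs in WT members without Cd79a (range per cell 0 to 67.9) and 13.7 in CD27_KO (0 to 49.2), beside 66.8 and 67.3 in T cells. The macrophage list took 45.2 (0 to 385) and 149 (0 to 406), with only Timd4 at 0. Of the 126480 UMIs of WT members without Cd79a, 102616 came from the 10 CD3-bearing cells without C1q. The parts of T cell RNA and of cell mixture in these differences were not separated by a test.

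The same differences were also computed in narrower sets of cells, and their cause was not tested. Among members with neither Cd79a nor CD3 (8 CD27_KO, 7 WT) the signs of 6 of the named genes turned: Ctsb was at -0.60, C1qa at -0.96, C1qc at -1.57, Ctsd, cathepsin D, at -0.51, Ccl6, a chemokine of myeloid cells, at -0.32 and Apoe at -1.66. Among the C1q cells alone (6 CD27_KO with 25371 UMIs, 8 WT with 20129) Grn was at 0.53, Ctsb 0.73, Psap 0.04, C1qa 0.10, Cst3 0.02 and Apoe -0.08, all within the 2-fold bound. None of the 9 plotted genes furthest up in all members without Cd79a was past the 2-fold bound within the C1q cells. C1qa and C1qc are among these 9 and also chose the C1q cells, so their values there are a description.

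**Figure D5:**
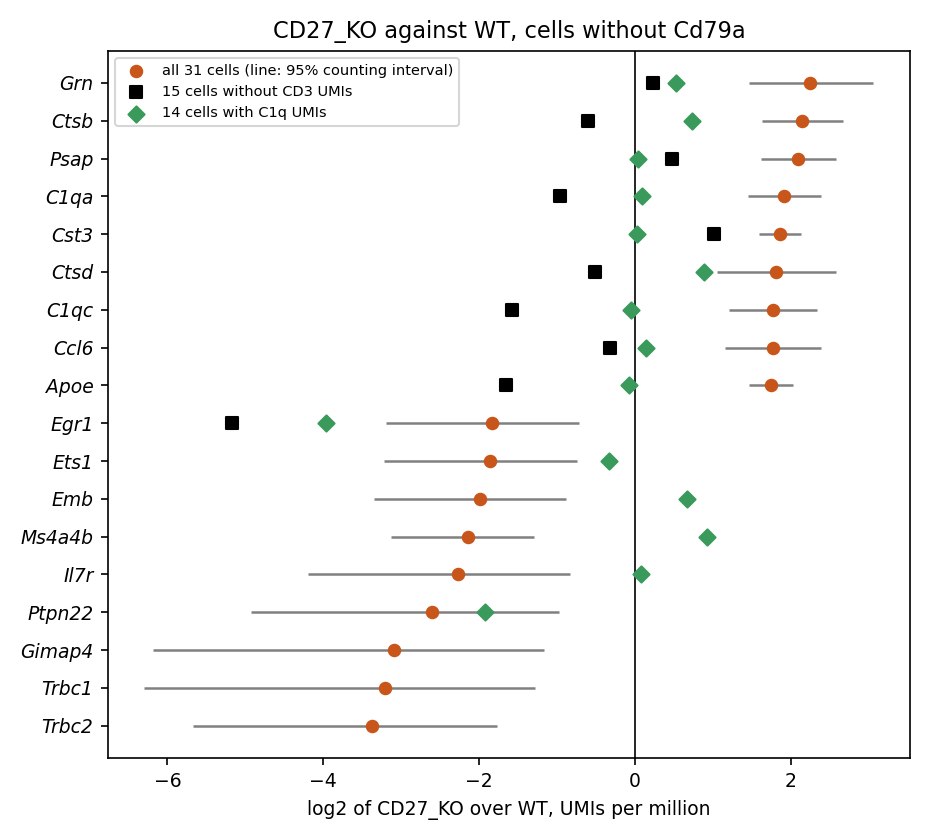
Log2 of CD27_KO over WT, from UMIs per 1000000 UMIs of summed cells, for named genes furthest in each direction in members without Cd79a. Circles are all 31 cells with the 95% counting interval, squares the 15 cells without CD3, and diamonds the 14 cells with C1q, shown where a side has more than 3 counts. The circles of macrophage genes lie between 1.75 and 2.25, while their diamonds lie between -0.08 and 0.89.

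Within the C1q cells, 4 of 131 measured genes lay 2-fold or more above WT in CD27_KO and 8 as far below. Cxcl2, a neutrophil chemokine, had 1 UMI in 1 of 6 CD27_KO cells and 56 in 4 of 8 WT cells, a ratio of 0.0142 with an interval of 0.00035 to 0.0822. Egr1, an immediate early gene, was 15.6-fold lower (5 UMIs in 3 cells against 62 in 6), Mt1 7.39-fold lower (22 in 4 against 129 in 6), Dusp1, an immediate early phosphatase, 2.75-fold lower (38 in 4 against 83 in 7) and Cd36, a fatty acid and lipoprotein receptor, 2.58-fold lower (21 in 5 against 43 in 6). Ccl5, a chemokine made by T cells too, was 4.11-fold higher (57 in 2 against 11 in 3), and all of these UMIs lay in C1q cells with CD3, with 0 in the 3 CD27_KO and 5 WT C1q cells without it. In T cells the log2 differences were -2.51 for Cxcl2, -1.47 for Mt1, -3.32 for Cd36, 0.79 for Egr1, 0.03 for Dusp1 and -0.26 for Ccl5. Cd36 had too few UMIs or cells in T cells to count as measured. Cxcl2 and Mt1 lay lower in the CD27_KO library in both the C1q cells and the T cells, and Egr1 and Dusp1 did not. Of the C1q cells, 3 of 6 CD27_KO and 3 of 8 WT cells carried CD3 themselves. Values of Cxcl2 and Mt1 are not given apart for C1q cells with and without CD3, and the part of T cell RNA in them was not tested. These are 14 cells, chosen after their values were seen, and the library and the genotype cannot be told apart.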

How the data were processed

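The authors used Cell Ranger 6.1.1 to count UMIs, per the file headers, and per the submitters' processing notes the genome build was mm10. The deposited matrices hold raw UMI counts per gene and called cell for 32285 genes, and 1 antibody feature with 0 UMIs. The labels name kit versions that differ between the design text and the sample protocol. Further settings were not given in the sources used here.

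Barcodes needed 500 genes or more and no more than 10% mitochondrial UMIs, which left 6338 of 6398 WT and 6853 of 6893 CD27_KO barcodes, with medians of 1945.5 and 2209 UMIs from totals of 16628623 and 20191704. The libraries share 12 barcodes, of which 0 belong to members. T cells here means nonmembers with at least 1 CD3 UMI, 6091 WT and 6690 CD27_KO. No doublet caller was run. Computations used Python 3.11.15, numpy 2.4.6, pandas 2.3.3, scipy 1.17.1 and matplotlib 3.10.9, and the steps were tested on simulated data.

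UMIs were summed over the cells of a class and scaled per 1000000 UMIs. A gene was measured at 50 UMIs or more over both sides in at least 5 cells, and called at 2-fold. A side at 0 was set to 3 counts. Shares carry Clopper-Pearson intervals and ratios exact conditional intervals. With 1 library per group no p-value was computed. H2-Aa, H2-Ab1, H2-Eb1 and Cd79a were not counted among the calls, while the plasmacytoid genes of the rule were, of which Tyrobp was called. To compare shares across depths, each cell was thinned to 1000 UMIs.

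Named genes were a fixed set (H2-Aa, H2-Ab1, H2-Eb1, Cd79a, Cd74, Cd27, Cd70, Cd4, Ms4a1, Lyz2, Itgax, Cd3e and Trac), the 10 called genes furthest in each direction (leaving out mitochondrial, ribosomal, sex-linked and haemoglobin genes, receptor segments and unnamed models), up to 4 members of each list with most UMIs, and every detected member of the class II, immunoglobulin constant and costimulatory ligand lists. Some genes that fall under this rule are not reported here. The genes given within the C1q cells were picked with their values known. The members and lists were chosen with earlier results of these data known. Alternatives changed the class II threshold, filters, scaling, cell weights and the cells included. The set of C1q cells alone was added after seeing the data.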

Additional observations from a re-analysis of the deposited data

Results flagged for a closer look

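Gimap4, a GTPase of lymphocytes that T cells express, differed between libraries in opposite directions in the members with and without Cd79a. With Cd79a its log2 difference, CD27_KO over WT, was 1.08 (80 against 33 UMIs), and without Cd79a it was at -3.10 (2 against 48 UMIs). In T cells it was 0.54 higher. It was the only gene called in opposite directions among 369 measured in both classes, and the difference was not tested. The T cell list took 49.7 and 45.5 of 10000 UMIs in WT and CD27_KO members with Cd79a, and 44.5 and 13.7 in those without. The part of T cell RNA in the Gimap4 values was not tested.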

How the results depend on the processing

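No paired analysis was possible because each group is 1 library. Of 110 recomputed summary values, 68 stayed near their main value and 42 moved. Members were 1.36% of WT and 0.722% of CD27_KO cells at 1000 genes or more, 0.205% and 0.175% without CD3-bearing cells, and 0.349% and 0.234% with cells thinned to 1000 UMIs. The share of members with Cd79a was 33.3% in CD27_KO without CD3-bearing cells (46.2% in WT), and 22.7% in WT and 31.2% in CD27_KO after thinning. Genes without against with Cd79a, higher and lower, were 34 and 22 without CD3-bearing cells, 247 and 208 at 20 UMIs, 26 and 15 at 100 UMIs, and 134 and 127 at 1.5-fold, and 71 were lower with each cell weighing the same. For CD27_KO against WT with Cd79a these were 3 and 3 without CD3-bearing cells, 92 and 63 at 20 UMIs, 5 and 2 at 100 UMIs, and 45 and 37 at 1.5-fold. There 17 were higher with each cell weighing the same and 6 without the deepest cell of each side. Without Cd79a they were 15 and 16 at 10 class II UMIs, 11 and 17 without CD3-bearing cells, 118 and 201 at 20 UMIs, 14 and 9 at 100 UMIs, 58 and 73 at 1.5-fold, and 4 and 8 in C1q cells alone. There 15 were higher with each cell weighing the same and 27 lower without the deepest cells. Among single genes, 511 values stayed, 57 moved and 12 reversed. Without CD3-bearing cells the reversed values were -0.25 for Vim with Cd79a, and without Cd79a -0.60 for Ctsb, -0.96 for C1qa, -0.51 for Ctsd, -1.57 for C1qc, -0.32 for Ccl6 and -1.66 for Apoe. In C1q cells alone they were -0.052 for C1qc, -0.076 for Apoe, 0.081 for Il7r, 0.93 for Ms4a4b and 0.67 for Emb. Fewer cells and fewer measured genes enter the settings without CD3 or with C1q, and other causes were not tested. Depth limits the regulators and ligands with 3 or fewer UMIs, for which no difference was detectable.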

Other observations

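The T cell transcripts in the CD3-bearing members were set against those of T cells by counting each gene per 100 CD3 UMIs. In members with Cd79a, Ccl5 had 82.4 UMIs per 100 CD3 UMIs in WT (interval 69.8 to 96.7, 12 cells) and 69.7 in CD27_KO (58.2 to 82.9, 13 cells), beside 91.0 and 78.1 in T cells. Gata3, the transcription factor of type 2 T cells, had 3.85 in WT (1.55 to 7.92) and 17.8 in CD27_KO (12.3 to 25.1), beside 9.64 and 15.3 in T cells. Ikzf2, Helios, had 23.1 in WT (16.6 to 31.2) and 7.03 in CD27_KO (3.74 to 12.02), beside 15.6 and 6.68. Areg, amphiregulin, had 38 UMIs in 3 WT cells and 0 in CD27_KO members with Cd79a, or 20.9 and 0 per 100 CD3 UMIs, beside 19.0 and 7.48 in T cells. Cxcl2 had 104 UMIs in 4 WT cells and 0 in CD27_KO members with Cd79a. Per 100 CD3 UMIs this was 57.1 in WT (46.7 to 69.2) and 0 in CD27_KO, beside 35.1 and 6.37 in T cells. These 5 genes were picked with their values known from 33 that were counted, and other genes lay in the opposite order. Trbc2 had 48.4 in WT and 69.7 in CD27_KO members with Cd79a, beside 51.9 and 48.4 in T cells, and Foxp3 had 1.10 and 1.62, beside 2.31 and 1.19. In CD3-bearing members without Cd79a, Ccl5 had 62.6 in WT and 237.5 in CD27_KO (3 cells), and Gata3 had 11.2 and 8.33. A few cells carry most of the Areg and Cxcl2 counts, so these values rest on 3 and 4 cells.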
